A study of Homo sapiens with 12 samples.

Results

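The 10 genes described here carry the synthesis and sensing of prostaglandins and leukotrienes, lipid mediators made from arachidonic acid. They were chosen by name, as the rows of the deposited table of 58288 genes that map to *PLA2G4A*, *PTGS1*, *PTGS2*, *PTGES*, *PTGER2*, *PTGER4*, *ALOX5AP*, *ALOX5*, *LTA4H* and *LTC4S*, and each symbol matched 1 row. The rule goes by name and uses no threshold on a value, but the genes were chosen with earlier results of these data known.

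RNA was sequenced from HL-60/S4, a human myeloid leukemia cell line, in 4 groups of 3 libraries. Promyelocytes were the undifferentiated cells, and they received either TNF-α at 16 ng/mL or the same volume of water (vehicle) for 2 h. Granulocytes had first been kept for 4 days with all-trans retinoic acid (ATRA) at 1 µM, a differentiating agent given in ethanol, and then received TNF-α or water in the same way. All groups came from 1 stock of frozen cells, stood at 8 passages and were treated in medium with added calcium. Each library was made from its own flask, so the p-values given here measure the spread between flasks of a single cell line. Promyelocytes and granulocytes were handled in separate experiments and suspended at different cell densities. Cell type and experiment cannot be told apart wherever the cell types are compared, in level or in response to TNF-α.

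Arachidonic acid is cut from membrane phospholipids by phospholipase A2 and then enters either of 2 branches. In the prostaglandin branch the cyclooxygenases form PGH2, which terminal synthases turn into PGE2 and other prostanoids that act on receptors at the cell surface. In the leukotriene branch 5-lipoxygenase, helped by its activating protein, forms LTA4, which is turned into LTB4, a strong attractant of neutrophils, or into the cysteinyl leukotrienes. Mature neutrophils are known for making LTB4, and PGE2 is known to restrain many neutrophil functions through receptors that raise cyclic AMP.

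Libraries held 22829189 to 31895061 read pairs counted on genes (median 28233190). Levels are given as normalized counts (CPM), that is, relative to library size, scaled over all 12 libraries by the TMM method, and 3 counts, the floor of detection used here, stood at 0.0946 to 0.136 CPM. The floor covers counting error alone. The labels were checked on genes that mark them. *TNFAIP3* and *NFKBIA*, known targets of TNF-α, rose by 3.63 and 3.91 on the log2 scale in promyelocytes and by 5.08 and 5.51 in granulocytes. *CD38* and *ITGAM*, which ATRA induces, stood at 8.51 and 6.40 CPM in promyelocytes with vehicle and at 1160 and 298 CPM in granulocytes with vehicle. Among 7 granulocyte markers *CEACAM8*, of specific granules, was the exception, at 0.183 and 0.168 CPM in granulocytes with vehicle and with TNF-α.

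In promyelocytes 7 of the 10 genes passed the filter on low counts. TNF-α raised 4 of them (*PTGER4*, *ALOX5AP*, *PTGER2* and *PTGS1*) and lowered 0, with a threshold of 0.05 on the adjusted p of edgeR's quasi-likelihood test. Over all 16250 genes tested 14.8% were called, 8.15% as higher and 6.65% as lower, or 1598 genes in place of 2405 without replicate 2 of the vehicle group. The median log2 fold change was 0.51 over the 7 genes and -0.01 over all genes. In granulocytes 9 of the 10 passed the filter, 5 rose (*PTGES*, *PTGER4*, *PTGER2*, *ALOX5AP* and *PTGS1*) and 2 fell (*PLA2G4A* and *LTA4H*). Here 49.2% of the 16944 genes tested were called, 24.4% as higher and 24.8% as lower, so a call in granulocytes is common. The median was 0.30 over the 9 genes and 0.00 over all genes.

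**Figure D1:**
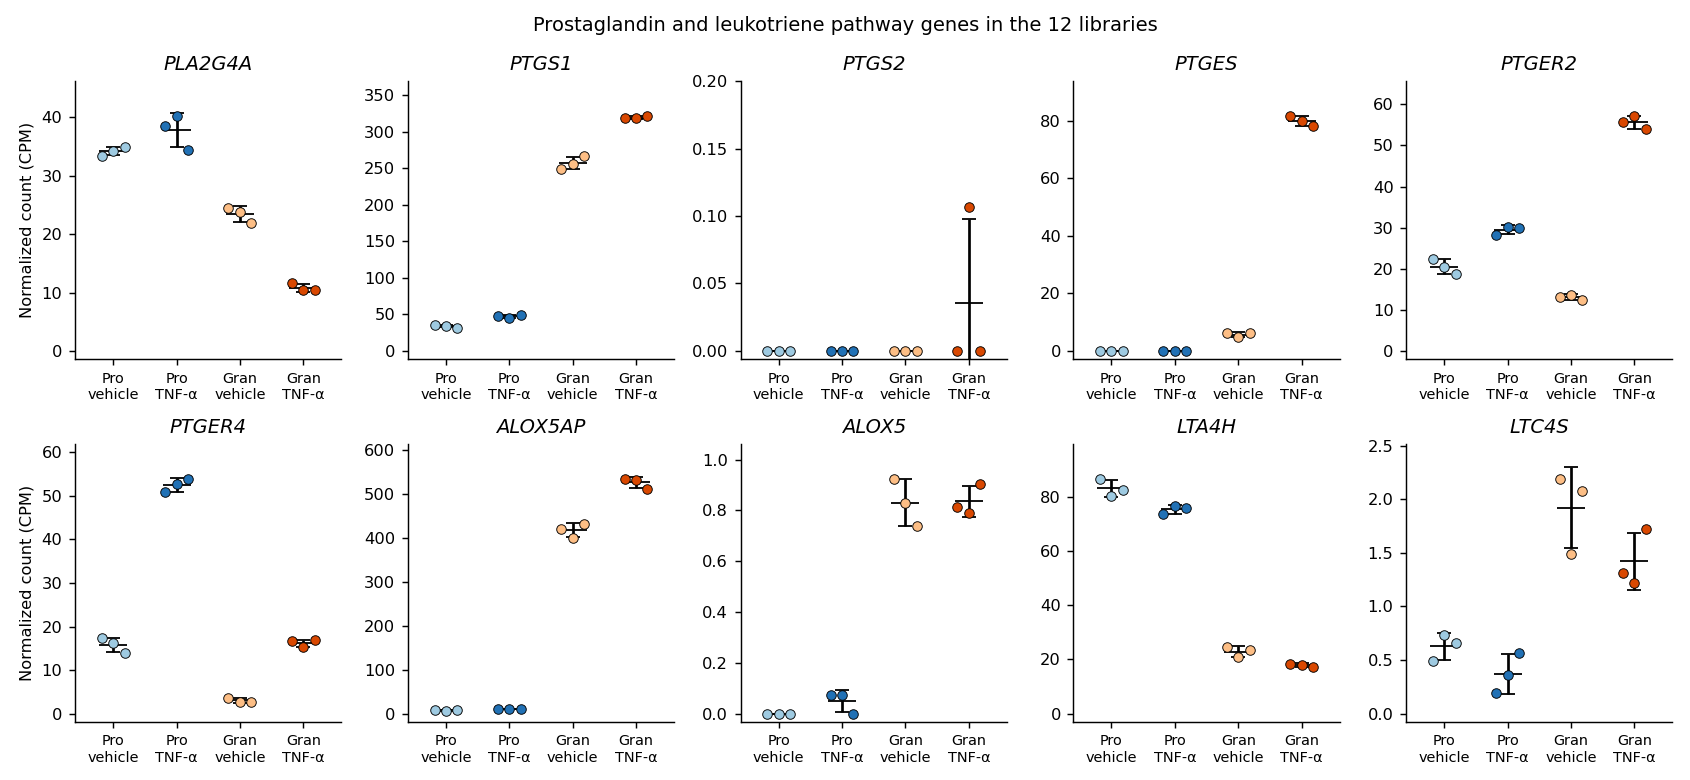
Normalized counts (CPM, linear axis from 0) of the 10 genes in each of the 12 libraries, with points for libraries and black bars for the mean ± SD of 3. PTGES and PTGER2 are highest in granulocytes with TNF-α, PTGER4 in promyelocytes with TNF-α, and PTGS2 has counts in 1 library, its SD bar running below the axis.

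*PLA2G4A* (chromosome 1, 186828953 to 186988981, plus strand, hg38) encodes cytosolic phospholipase A2 alpha, which releases arachidonic acid. The 3 promyelocyte libraries with vehicle held 33.4, 34.2 and 34.9 CPM, and the 3 with TNF-α 38.6, 40.2 and 34.5. Replicates 1 and 2 with TNF-α lay above the vehicle libraries and replicate 3 among them. The log2 fold change was 0.17 (standard error, SE, 0.0720, edgeR adjusted p = 0.135), and without replicate 3 of the treated group it was 0.23 with an adjusted p of 0.0345 in the same edgeR test. In granulocytes the values were 24.4, 23.8 and 21.9 CPM with vehicle and 11.6, 10.4 and 10.5 with TNF-α. Every treated granulocyte library was below every vehicle one. *PLA2G4A* fell 2.19-fold in granulocytes, or -1.13 in log2 fold change (SE 0.0832, edgeR adjusted p = 3.01e-14).

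*PTGS1* (chromosome 9, 122370530 to 122395703, plus strand) encodes cyclooxygenase-1, the form found in many resting tissues. With vehicle the promyelocyte libraries held 35.2, 34.6 and 31.9 CPM, and with TNF-α 47.5, 44.9 and 49.8. The granulocyte libraries held 249, 255 and 266 CPM with vehicle and 318, 318 and 321 with TNF-α. The groups did not overlap in either cell type. *PTGS1* rose by 0.51 on the log2 scale in promyelocytes (SE 0.0666, edgeR adjusted p = 1.26e-05) and by 0.30 in granulocytes (SE 0.0479, edgeR adjusted p = 1.91e-06). Platelets are rich in this enzyme, and of the 4 megakaryocyte markers *PF4* and *GP9* were at 0 counts in every library, with summed levels of the 4 between 0.570 and 2.04 CPM in the 4 groups.

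*PTGS2* (chromosome 1, 186671791 to 186680427, minus strand) encodes cyclooxygenase-2, the inducible form. It had 0 counts in 11 of the 12 libraries and 3 counts, 0.107 CPM, in replicate 2 of the granulocytes with TNF-α. It never passed the filter and was not tested. In a library with 0 counts the depth allows a level of up to 0.0946 to 0.136 CPM, and a level below that was not detectable at 2 h. Cyclooxygenase reads in these cells therefore came almost wholly from *PTGS1*.

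*PTGES* (chromosome 9, 129738331 to 129753047, minus strand) encodes microsomal PGE synthase-1, the inducible enzyme that turns PGH2 into PGE2. The counts in promyelocytes were 2, 1 and 0 with vehicle and 2, 0 and 3 with TNF-α, at or under the floor in all 6 libraries, and no fold is given. The granulocyte libraries with vehicle held 164, 141 and 181 counts, or 6.31, 4.67 and 6.07 CPM. With TNF-α they held 1803, 2231 and 1730 counts, or 81.5, 79.9 and 78.2 CPM. The 3 treated granulocyte libraries stood far above all others. *PTGES* rose 14-fold in granulocytes, from 5.68 ± 0.888 to 79.9 ± 1.64 CPM (SD, n = 3 libraries), or 3.80 in log2 fold change (SE 0.0784, edgeR adjusted p = 1.76e-31), the largest of the 10 genes.

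Levels of different genes are set side by side per kilobase of exon. The length takes in all annotated exons of a gene, whether or not these cells use them, so such ratios are approximate. On this scale *PTGES* stood at 0.0677 ± 0.0108 of the level of *PTGS1* in granulocytes with vehicle and at 0.765 ± 0.0195 after TNF-α (SD, n = 3). The ratio lay between 0.0559 and 0.0773 in the vehicle libraries and between 0.744 and 0.783 in the treated ones. An exact permutation test, two-sided, of 3 libraries against 3 cannot go below p = 0.1, so no test of the ratio is given.

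*PTGER2* (chromosome 14, 52314305 to 52328606, plus strand) and *PTGER4* (chromosome 5, 40679498 to 40693735, plus strand) encode EP2 and EP4, the PGE2 receptors that couple to the stimulatory G protein and raise cyclic AMP. For *PTGER2* the promyelocyte libraries held 22.3, 20.5 and 18.8 CPM with vehicle and 28.2, 30.2 and 30 with TNF-α, and the granulocyte libraries 13.2, 13.7 and 12.3 with vehicle and 55.7, 57.1 and 54.1 with TNF-α. The groups did not overlap, and the order of the cell types was turned round: granulocytes were the lower with vehicle and the higher with TNF-α. The rise was 0.55 on the log2 scale in promyelocytes (SE 0.0778, edgeR adjusted p = 3.49e-05). In granulocytes it was 2.08, a 4.22-fold rise (SE 0.0674, edgeR adjusted p = 4.05e-25).

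For *PTGER4* the promyelocyte libraries held 17.3, 16.3 and 14 CPM with vehicle and 50.8, 52.7 and 53.9 with TNF-α. The granulocyte libraries held 3.66, 2.68 and 2.72 CPM with vehicle and 16.6, 15.3 and 16.8 with TNF-α. Within each cell type the treated libraries were all higher, and the granulocytes with TNF-α overlapped the promyelocytes with vehicle. *PTGER4* rose 3.37-fold in promyelocytes (log2 fold change 1.75, SE 0.0766, edgeR adjusted p = 9.47e-13) and 5.35-fold in granulocytes (log2 fold change 2.42, SE 0.120, edgeR adjusted p = 2.54e-19). Per kilobase of exon the ratio of *PTGER4* to *PTGER2* was 0.481 ± 0.0158 in promyelocytes with vehicle and 1.11 ± 0.0205 with TNF-α. In granulocytes it was 0.144 ± 0.0256 with vehicle and 0.182 ± 0.0137 after TNF-α (SD, n = 3), so *PTGER2* was the more abundant receptor RNA in granulocytes in both groups.

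Among the 10 genes *PTGES*, *PTGER2* and *PTGER4* had the 3 largest rises in granulocytes, so the start of each gene is shown. Each sequence runs 5′ to 3′ on the strand of the gene over 300 bases, from 250 before to 50 after the start site in RefSeq (GRCh38.p14), and was found for 9 of the 10 genes. Capitals mark matches to the NF-kB consensus, searched on both strands, since NF-kB is the factor through which TNF-α is known to act on many genes. The *PTGES* window is chr9:129752993-129753292 (minus strand), that of *PTGER2* chr14:52314062-52314361 (plus strand) and that of *PTGER4* chr5:40679665-40679964 (plus strand). The *PTGER4* window lies inside the gene as the annotation used for counting draws it, and the other windows span the start of theirs.
PTGES: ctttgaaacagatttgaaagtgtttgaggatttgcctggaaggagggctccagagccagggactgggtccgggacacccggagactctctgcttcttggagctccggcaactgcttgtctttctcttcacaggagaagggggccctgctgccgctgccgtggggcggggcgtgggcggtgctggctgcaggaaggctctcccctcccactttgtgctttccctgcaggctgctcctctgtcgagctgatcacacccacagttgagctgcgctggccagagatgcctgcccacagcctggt
PTGER2: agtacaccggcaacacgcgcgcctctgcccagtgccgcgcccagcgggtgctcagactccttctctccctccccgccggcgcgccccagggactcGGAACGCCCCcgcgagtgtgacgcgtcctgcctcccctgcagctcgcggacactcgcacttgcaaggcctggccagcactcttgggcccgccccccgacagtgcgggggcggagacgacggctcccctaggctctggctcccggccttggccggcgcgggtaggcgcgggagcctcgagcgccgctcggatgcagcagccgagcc
PTGER4: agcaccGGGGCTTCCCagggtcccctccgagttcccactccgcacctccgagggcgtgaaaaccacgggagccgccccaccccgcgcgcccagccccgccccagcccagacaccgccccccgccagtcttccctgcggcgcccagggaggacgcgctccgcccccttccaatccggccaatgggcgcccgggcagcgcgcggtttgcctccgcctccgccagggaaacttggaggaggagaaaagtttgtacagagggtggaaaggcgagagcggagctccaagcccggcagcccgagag
The *PTGER2* window holds 1 match on the minus strand whose first base lies at position -155 from the start site, and the *PTGER4* window 1 match at -244 that reads as the consensus on both strands. The *PTGES* window holds none, which says no more than that these letters are absent from it. Among 35116 promoter windows of the same length 11.3% hold such a match. GGGCGG, the core of a GC box, occurs in all 3 windows, with 2 matches for *PTGES*, 2 for *PTGER2* and 4 for *PTGER4* over both strands, and in 45.0% of all windows. A match is a run of letters, and binding was not measured here.

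*ALOX5AP* (chromosome 13, 30713478 to 30764426, plus strand) encodes FLAP, the membrane protein that presents arachidonic acid to 5-lipoxygenase. The promyelocyte libraries held 8.33, 6.66 and 7.25 CPM with vehicle and 11, 10.9 and 11.3 with TNF-α. The granulocyte libraries held 421, 400 and 432 CPM with vehicle and 534, 532 and 511 with TNF-α. All treated libraries were above the vehicle libraries of their cell type. *ALOX5AP* rose by 0.60 on the log2 scale in promyelocytes (SE 0.110, edgeR adjusted p = 0.000607) and by 0.32 in granulocytes (SE 0.0491, edgeR adjusted p = 1.02e-06).

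*ALOX5* (chromosome 10, 45374176 to 45446119, plus strand) encodes 5-lipoxygenase itself. Its counts were 0, 0 and 0 in promyelocytes with vehicle and 2, 2 and 0 with TNF-α, under the floor, and the gene was not tested there. In granulocytes the counts were 24, 25 and 22 with vehicle and 18, 22 and 20 with TNF-α, which gave 0.924, 0.828 and 0.738 CPM and 0.814, 0.788 and 0.905 CPM. The granulocyte groups overlapped, and the log2 fold change was 0.00 (SE 0.328) with an adjusted p of 0.994 in edgeR. At this depth the standard error leaves room for a change of either sign. Per kilobase of exon, granulocytes with vehicle had 243 ± 9.65 CPM of *ALOX5AP* and 0.222 ± 0.0249 CPM of *ALOX5* (SD, n = 3), so the helper protein's RNA was abundant where that of the enzyme was sparse.

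*LTA4H* (chromosome 12, 96000828 to 96043520, minus strand) encodes LTA4 hydrolase, which makes LTB4. The promyelocyte libraries held 86.5, 80.2 and 82.3 CPM with vehicle and 73.5, 76.6 and 75.8 with TNF-α. The treated libraries were all lower by a small margin, and the log2 fold change of -0.12 did not pass the test (SE 0.0579, edgeR adjusted p = 0.207). Of all genes tested in promyelocytes 30.9% had groups that did not overlap. After removal of the trends that each library showed with GC and length, *LTA4H* was at -0.16 with an adjusted p of 0.0382 in edgeR. The granulocyte libraries held 24.4, 20.7 and 23.4 CPM with vehicle and 18.4, 17.9 and 17.2 with TNF-α, again with no overlap. *LTA4H* fell by 0.37 on the log2 scale in granulocytes (SE 0.0775, edgeR adjusted p = 0.000136). On the opposite strand 2 genes overlap its exons, with 0 to 5 counts, and the counting kept the strands apart.

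*LTC4S* (chromosome 5, 179793980 to 179796647, plus strand) encodes LTC4 synthase, which opens the path to the cysteinyl leukotrienes. It had 15, 20 and 19 counts in promyelocytes with vehicle and 5, 10 and 18 with TNF-α. In granulocytes it had 57, 45 and 62 counts with vehicle and 29, 34 and 38 with TNF-α. In CPM the groups overlapped throughout. Its log2 fold changes were -0.70 in promyelocytes (SE 0.432, edgeR adjusted p = 0.329) and -0.46 in granulocytes (SE 0.250, edgeR adjusted p = 0.132). With the GC and length trends removed the granulocyte value was -0.67 with an adjusted p of 0.0235 in edgeR. Mast cells also make this enzyme, and the 3 mast cell markers summed to 4.44 to 5.94 CPM with vehicle and 2.48 to 3.62 with TNF-α in promyelocytes, and to 1.13 to 2.21 and 0.466 to 1.27 in granulocytes. Of the 3 *MS4A2* was the 1 that was tested, and it fell in both cell types (log2 fold changes of -0.82 and -1.06, edgeR adjusted p = 0.00612 and 0.0126). The part of these markers in the values of *LTC4S* was not tested.

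**Figure D2:**
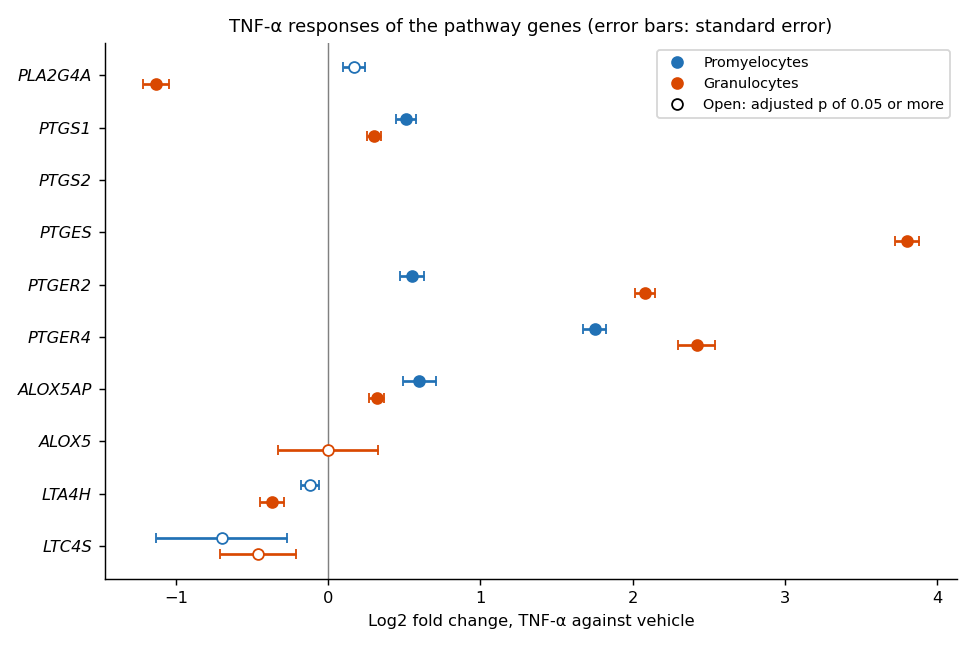
Log2 fold change of TNF-α against vehicle for the 10 genes in promyelocytes (blue) and granulocytes (orange), with standard errors, open points where the adjusted p was 0.05 or more and no point where the gene was not tested. PTGES at 3.80, PTGER4 at 2.42 and PTGER2 at 2.08 lead in granulocytes, where PLA2G4A is at -1.13 and LTA4H at -0.37.

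The next comparison asked whether the response to TNF-α differed between the cell types, with an interaction term fitted to the 12 libraries together. Here too cell type and experiment cannot be told apart. Of the 10 genes 9 passed the filter of this fit, 2 had a higher response in granulocytes and 1 a lower one. Over the 18124 genes tested 24% were called, 14.1% as higher and 9.88% as lower. Of all called genes 2561 were higher and 1790 lower with TMM, and 2128 and 2266 with DESeq2's size factors in the same edgeR fit. *PTGER2* responded 2.97-fold more in granulocytes (difference of log2 fold changes 1.57, SE 0.103, edgeR adjusted p = 6.74e-12). The difference for *PTGER4* was 0.71 (SE 0.144, edgeR adjusted p = 0.000561). *PLA2G4A* was at -1.26 (SE 0.108, edgeR adjusted p = 1.16e-09), the gene whose log2 fold changes were 0.17 and -1.13.

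The differences of 6 genes did not pass this test. *PTGS1* was at -0.17 (adjusted p = 0.122 in edgeR), *ALOX5AP* at -0.24 (0.0757) and *LTA4H* at -0.21 (0.0951), and all 3 passed with DESeq2's size factors, with adjusted p of 0.0432, 0.0315 and 0.0356. They also passed with no expression filter and with DESeq2. *PTGS1* passed as well with the GC and length trends removed (-0.22, adjusted p = 0.0166 in edgeR). The calls for these genes thus depended on the setting. Leaving out 1 library was enough for *ALOX5AP* (replicate 1 of promyelocytes with vehicle, adjusted p = 0.0154 in edgeR) and *LTA4H* (replicate 2 of granulocytes with vehicle, 0.0322). *PTGES* was at 3.14 with a standard error of 1.29 (edgeR adjusted p = 0.0786), with 3 and 5 counts in all on the promyelocyte side, and it passed this filter through the granulocyte libraries alone. The alternatives gave 1.82 to 3.14 with adjusted p from 0.0204 (DESeq2) to 0.603 (edgeR on thinned counts). Fits without single libraries gave 2.34 to 3.74 with adjusted p up to 0.498, and 1 of 12 passed, that without replicate 3 of the promyelocytes with vehicle (3.67, adjusted p = 0.0367 in edgeR). *LTC4S* was at 0.27 and *ALOX5* at -3.49, with standard errors of 0.476 and 1.54. *ALOX5* passed this filter through the granulocyte libraries alone, with 0 and 4 counts in all on the promyelocyte side. Its value without replicate 3 of the promyelocytes with TNF-α, -4.08 (adjusted p = 0.0463 in edgeR), rests on these few counts.

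Levels with vehicle were compared between granulocytes and promyelocytes. Of the 9 genes that passed the filter 5 were higher in granulocytes and 4 lower, where 72% of the 18124 genes tested were called and 74.4% had groups that did not overlap. *PTGES* and *ALOX5* passed this filter through the granulocyte libraries alone. Fewer cells of a type and less RNA per cell cannot be told apart in such bulk samples. *ALOX5AP* was 56.1-fold higher in granulocytes (log2 fold change 5.81, edgeR adjusted p = 1.17e-28) and *PTGS1* 7.57-fold (2.92, adjusted p = 1.14e-24). The pooled count of *PTGES* was 163-fold that in promyelocytes after scaling, with a 95% interval of 55.6 to 795 for counting error. *ALOX5* was at least 7.54-fold higher, measured against the highest floor of a promyelocyte library with vehicle (3 counts, 0.110 CPM), and *LTC4S* was 3.05-fold higher (adjusted p = 4.68e-05).

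Lower in granulocytes with vehicle were *PTGER4* by 5.28-fold (edgeR adjusted p = 1.1e-16), *LTA4H* by 3.64-fold (1.41e-19), *PTGER2* by 1.57-fold (2.12e-08) and *PLA2G4A* by 1.46-fold (1.58e-07). Among the 10 genes, of the enzymes that act on LTA4, *LTA4H* was thus the lower and *LTC4S* the higher in granulocytes, where cell type and experiment cannot be told apart. Of the further genes, *MGST2* stood at 33.4 CPM in promyelocytes and 37.6 in granulocytes with vehicle, and *MGST3* at 27.6 and 12.9. In CPM both lay above *LTC4S*, at 0.627 and 1.92. Exon length changes this order: per kilobase *MGST2* stood at 10.5 ± 0.440 and 11.8 ± 0.818 CPM and *MGST3* at 3.28 ± 0.231 and 1.54 ± 0.0781. *LTC4S* stood at 0.526 ± 0.105 and 1.61 ± 0.317 CPM per kilobase (SD, n = 3). On this scale *MGST3* and *LTC4S* lay within their spread of each other in granulocytes with vehicle. Per kilobase of exon, *LTA4H* stood at 22.2 ± 5.70 times *LTC4S* in promyelocytes with vehicle and at 1.96 ± 0.251 times in granulocytes with vehicle (SD, n = 3). The ratio was 17.7 to 28.6 in the former libraries and 1.81 to 2.25 in the latter.

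The order of the 10 genes per kilobase of exon differed between the groups. In promyelocytes with vehicle *PLA2G4A* (11.9 ± 0.252 CPM per kilobase) and *LTA4H* (11.3 ± 0.432) were at the top and did not differ beyond their spread, followed by *PTGER2* (8.31 ± 0.708), *PTGS1* (5.86 ± 0.304), *ALOX5AP* (4.32 ± 0.495) and *PTGER4* (4.00 ± 0.423). The last 2 overlapped within their SD. *LTC4S* (0.526 ± 0.105) came next, and *PTGES*, *ALOX5* and *PTGS2* were at or under the floor. In promyelocytes with TNF-α *PTGER4* (13.2 ± 0.385) and *PLA2G4A* (13.1 ± 1.02) had the highest means and lay within their spread of each other, as did *PLA2G4A* and *PTGER2* (11.9 ± 0.442), followed by *LTA4H* (10.2 ± 0.215), *PTGS1* (8.18 ± 0.419), *ALOX5AP* (6.45 ± 0.128) and *LTC4S* (0.311 ± 0.159). In granulocytes with vehicle *ALOX5AP* (243 ± 9.65) and *PTGS1* (44.3 ± 1.43) led, followed by *PLA2G4A* (8.13 ± 0.467), *PTGER2* (5.28 ± 0.289), *LTA4H* (3.11 ± 0.264) and *PTGES* (3 ± 0.468). The last 2 lay within their spread, and *LTC4S* (1.61 ± 0.317), *PTGER4* (0.762 ± 0.140) and *ALOX5* (0.222 ± 0.0249) followed. In granulocytes with TNF-α *ALOX5AP* (307 ± 7.60) was first, followed by *PTGS1* (55.1 ± 0.307), *PTGES* (42.1 ± 0.866) and *PTGER2* (22.5 ± 0.617). *PTGER4* (4.10 ± 0.204) and *PLA2G4A* (3.76 ± 0.233) lay within their spread of each other, above *LTA4H* (2.43 ± 0.0865), *LTC4S* (1.19 ± 0.223) and *ALOX5* (0.224 ± 0.0164).

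**Figure D3:**
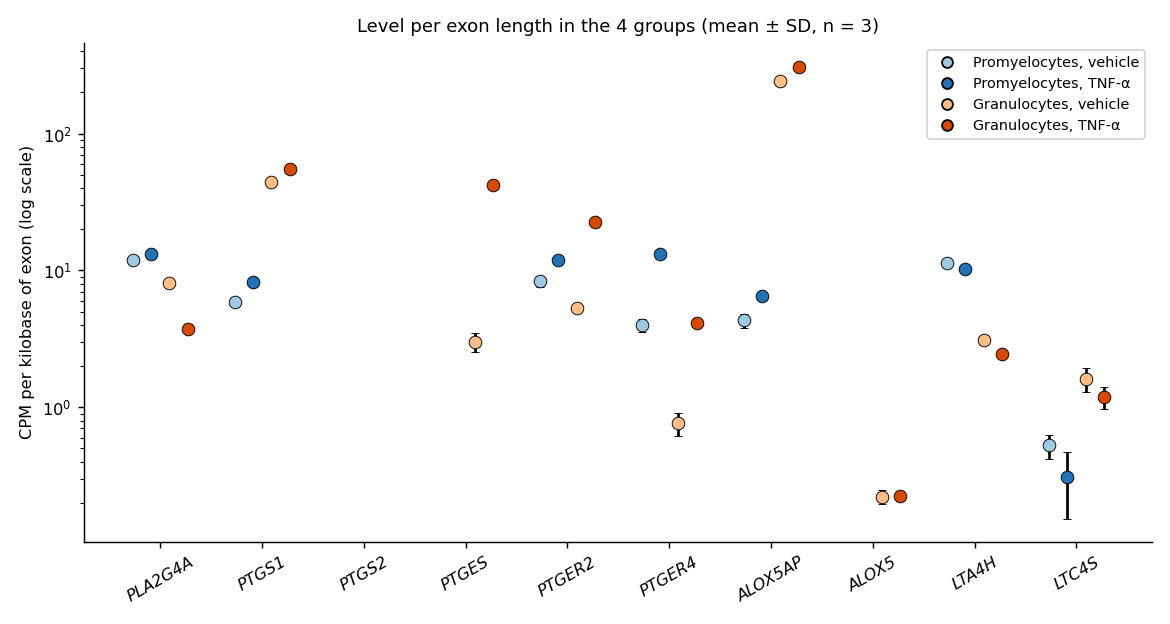
Level per kilobase of exon (CPM per kilobase, log axis, mean ± SD of 3 libraries) of the 10 genes in the 4 groups, with no point where every library of a group was at or under 3 counts. ALOX5AP in granulocytes stands at 243 and 307, above every other gene, and ALOX5 in granulocytes at 0.222 and 0.224.

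A further 48 genes of the pathway, also listed with earlier results of these data known, were counted in the same fits. In promyelocytes 24 were tested and 2 rose, *PLA2G4C* and *FPR2*, while 0 fell, a share of 8.33% against the 14.8% of all genes. In granulocytes 25 were tested, 9 rose and 11 fell, a share of 80% against the 49.2% of all genes, and the median log2 fold change was -0.07. In the test of the difference 27 were tested, with 6 higher and 3 lower, a share of 33.3% against the 24% of all genes. Of the 48 genes 7 had 0 counts in all 12 libraries and 21 were tested in no fit. Of 20 genes called with TNF-α in a cell type, 17 had a mean of at least 1 CPM over the 12 libraries.

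Beside *PLA2G4A*, which fell in granulocytes, a related phospholipase moved the other way. *PLA2G4C*, which encodes the calcium-independent cytosolic phospholipase A2 gamma, had 2 to 6 counts in promyelocytes with vehicle and 36 to 39 with TNF-α, and 7 to 14 and 80 to 149 counts in granulocytes. It rose 10.2-fold in promyelocytes (log2 fold change 3.34, edgeR adjusted p = 8.19e-06) and 13.7-fold in granulocytes (3.78, edgeR adjusted p = 2.71e-14). In both cell types *PLA2G4C* passed the filter through the treated libraries, so the size of each rise is uncertain. Fits without single libraries gave log2 fold changes of 3.07 to 3.82 in promyelocytes and 3.59 to 4.15 in granulocytes. Its level stayed low, at 4.55 ± 0.870 CPM in granulocytes with TNF-α. *PLA2G6*, the calcium-independent group VI enzyme, fell by 0.37 on the log2 scale in granulocytes (edgeR adjusted p = 0.00176).

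Among 8 other prostanoid synthases 4 were tested in granulocytes and 1 rose. This was *PTGES2*, a second PGE synthase, with a log2 fold change of 0.30 from 51.0 ± 4.33 to 63.5 ± 4.91 CPM (edgeR adjusted p = 8.8e-05). Of the 5 genes of prostaglandin breakdown and transport 3 were tested there. The exporter gene *ABCC4* rose by 0.17 (adjusted p = 0.00873), and *PTGR2*, a reductase of prostaglandin metabolites, fell by 0.63 on the log2 scale (adjusted p = 0.0118 in edgeR). *HPGD*, the dehydrogenase that starts the breakdown of PGE2, also fell, with 28 to 29 counts with vehicle and 10 to 13 with TNF-α (log2 fold change -0.99, edgeR adjusted p = 0.0182, DESeq2 adjusted p = 0.0852). It lay under 1 CPM and was named after its values were seen. The call for *ABCC4* was lost without replicate 2 of the vehicle or of the treated granulocytes (adjusted p up to 0.056 in edgeR), that for *PTGR2* without replicate 2 of the treated ones (0.0774), with DESeq2 (0.0552) and with all 12 libraries in 1 edgeR fit (0.0507), and that for *HPGD* without replicate 1 of the vehicle group or replicate 2 or 3 of the treated group (up to 0.0706).

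Of 7 other prostanoid receptors 1 was tested in granulocytes. *PTGIR*, the prostacyclin receptor, which like EP2 and EP4 raises cyclic AMP, had 0 to 4 counts with vehicle and 58 to 67 with TNF-α, or 0.0698 ± 0.0665 and 2.62 ± 0.490 CPM (SD, n = 3). It was called as higher, but it passed the filter through the treated libraries alone and its vehicle mean lay under the floor, so no fold is given. In promyelocytes it had 1 to 2 counts with vehicle and 9 to 17 with TNF-α and was not tested. The mean of *PTGIR* lay under 1 CPM, and it was named after its values were seen.

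The receptors for leukotrienes fell in granulocytes. Of the 6 genes in this list 5 were tested there, 4 fell and *FPR2*, the lipoxin and formyl peptide receptor, rose. *LTB4R*, the high-affinity LTB4 receptor BLT1, went from 176 ± 9.63 to 123 ± 6.04 CPM (log2 fold change -0.53, edgeR adjusted p = 5.47e-11) and *LTB4R2* from 26.9 ± 1.71 to 20.2 ± 0.972 CPM (-0.43, adjusted p = 5.93e-06). The receptors for cysteinyl leukotrienes fell further, *CYSLTR1* from 168 ± 9.84 to 89.0 ± 2.09 CPM (-0.93, edgeR adjusted p = 6.81e-18) and *CYSLTR2* from 7.60 ± 0.858 to 1.02 ± 0.0647 CPM (-2.90, edgeR adjusted p = 2.03e-16). In all 4 every treated granulocyte library was below every vehicle library, which 55.1% of all genes tested in granulocytes showed in one direction or the other. *FPR2* rose from 128 ± 3.54 to 218 ± 4.48 CPM in granulocytes (0.76, edgeR adjusted p = 4.8e-16) and from 17.7 ± 1.06 to 21.6 ± 0.260 CPM in promyelocytes (0.31, edgeR adjusted p = 0.0101), the latter with an adjusted p of 0.0503 without replicate 3 of the vehicle group.

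Of 10 other genes of leukotriene metabolism and transport 8 were tested in granulocytes, 4 rose and 4 fell. *CYP4F3*, which inactivates LTB4, fell from 113 ± 4.82 to 73.0 ± 1.73 CPM (log2 fold change -0.64, edgeR adjusted p = 4.21e-13), and *DPEP2*, which turns LTD4 into LTE4, fell by 1.75 on the log2 scale (adjusted p = 1.84e-07 in edgeR). *GGT1* (0.59, adjusted p = 1.12e-09 in edgeR) and *GGT5* (2.16, adjusted p = 3.19e-05), whose enzymes cleave LTC4, rose. *GGT5* went from 4 to 13 counts to 25 to 30 and passed the filter through the treated libraries, so the size of its rise is uncertain. It was at 2.81 without replicate 3 of the granulocytes with vehicle, lay under a mean of 1 CPM and was named after its values were seen. *COTL1*, which encodes a protein that binds 5-lipoxygenase, rose from 848 ± 41.7 to 1130 ± 97.8 CPM (0.40, edgeR adjusted p = 1.22e-07). *MGST2*, an enzyme that can also make LTC4, fell by 0.27 on the log2 scale (adjusted p = 0.000922 in edgeR). The calls for *MGST3* (0.21, edgeR adjusted p = 0.0455) and for the LTC4 exporter gene *ABCC1* (-0.15, edgeR adjusted p = 0.0135) were lost without replicate 2 or 3 of the vehicle group, and also without replicate 1 or 3 of the treated group for the former and replicate 2 or 3 for the latter, with adjusted p up to 0.161 and 0.112 in edgeR. With all 12 libraries in 1 edgeR fit both were lost (0.0613 and 0.0674), and *MGST3* was also lost with DESeq2 (0.137), with no expression filter (0.093) and on thinned counts (0.0655).

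**Figure D4:**
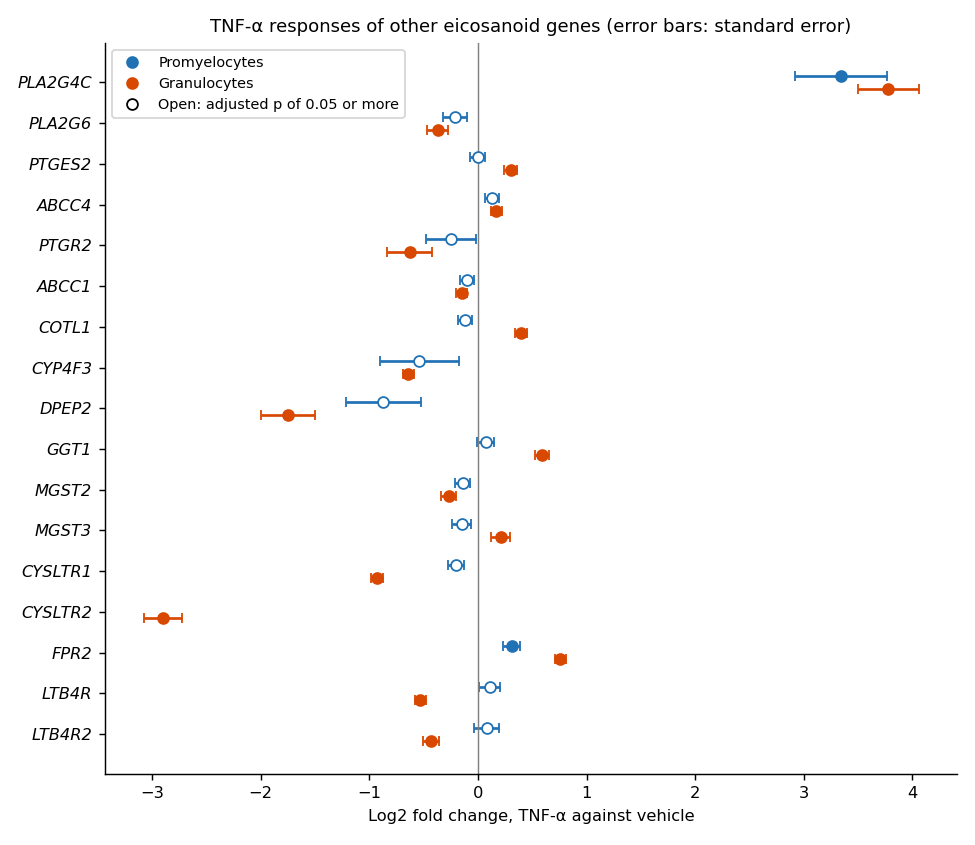
Log2 fold change of TNF-α against vehicle for the 17 further pathway genes called in at least 1 cell type with a mean of at least 1 CPM, in promyelocytes (blue) and granulocytes (orange), with standard errors and open points for an adjusted p of 0.05 or more. PLA2G4C is at 3.34 and 3.78, from few vehicle counts. CYSLTR2 is at -2.90 in granulocytes with no promyelocyte point because it was not tested there.

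Markers of the cell states moved in the same comparisons. The 5 azurophil granule markers summed to 7320 to 8150 CPM in promyelocytes with vehicle and 6070 to 6970 with TNF-α, and to 2130 to 2350 and 2150 to 2350 in granulocytes, and 3 of 5 tested fell in promyelocytes. The 7 granulocyte markers summed to 157 to 165 and 263 to 280 CPM in promyelocytes, where *CYBB* (0.96) and *NCF1* (1.25) rose and *CSF3R* (-0.45) fell, as log2 fold changes. They summed to 4850 to 5110 and 5360 to 5720 CPM in granulocytes, where *NCF1* (0.67) rose and *CD38* (-0.19), *ITGAM* (-0.26) and *CSF3R* (-0.31) fell. Beside the falls of *PLA2G4A* and the leukotriene receptors, the 7 monocyte or macrophage markers went from 49.1 to 51.3 CPM with vehicle to 30.2 to 34.0 with TNF-α in granulocytes. Of these 7 *CSF1R* was the 1 that was tested and fell, while *MARCO* and *MSR1* were at 0 in every library and *CD14* stood at 0.186 and 0.309 CPM. The part of these markers in the results was not tested.

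The genes whose log2 CPM followed that of *ALOX5* most closely over the 12 libraries were *USP15* (Pearson r = 0.9975), *PTPRC* (0.9969), *PIAS1* (0.9967), *CYRIB* (0.9964) and *P2RY13* (0.996). The points share the 2 cell types and their libraries, and the values are descriptions with no test. No such list could be made for *PTGS2*, which did not pass the filter.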

How the data were processed

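Per the methods and the labels, ribosomal RNA was removed, paired reads were aligned to hg38 with STAR 2.5.3a on GENCODE v27, and the authors deposited raw counts of read pairs per gene from featureCounts 1.5.2 (primary alignments, both ends mapped, reverse strand). Of 58288 identifiers 57532 received a symbol. The TNF-α comparisons used the 6 libraries of a cell type and edgeR 4.0.16 (R 4.3.3): TMM, filterByExpr (minimum count 10, total 15), quasi-likelihood test, Benjamini-Hochberg adjustment over all genes tested, threshold 0.05. Differences of responses and vehicle levels came from 1 fit of all 12 libraries, and standard errors from the fold change and the F statistic. The procedure was tested on simulated data. Alternatives included DESeq2 1.42.0. Promoter windows came from RefSeq and plots were drawn with matplotlib 3.10.9.

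The members and gene lists were chosen with earlier results of these data known. Named were the 10 genes, each further pathway gene called with TNF-α at a mean of at least 1 CPM, the 5 genes most like *PTGS2* and *ALOX5*, and the label checks.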

Additional observations from a re-analysis of the deposited data

Results flagged for a closer look

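The response to TNF-α differed between the cell types, in the edgeR test of the interaction, for 3 of the 10 genes and 9 further pathway genes. *PTGER2* (1.57) and *PTGER4* (0.71) rose more in granulocytes, as differences of log2 fold changes. *PLA2G4A* (-1.26) fell in granulocytes and was not called in promyelocytes. The difference for *PLA2G4A* lay between -1.34 and -1.05 over the alternatives, for *PTGER2* between 1.49 and 1.58 and for *PTGER4* between 0.62 and 0.71.

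Higher in granulocytes among the further genes were *COTL1* (0.57, edgeR adjusted p = 6.14e-05), *GGT1* (0.56, adjusted p = 0.000362), *FPR2* (0.48, adjusted p = 6.41e-05), *MGST3* (0.39, adjusted p = 0.0229), *PTGES2* (0.34, adjusted p = 0.0169) and *TBXAS1* (0.33, adjusted p = 0.029), the thromboxane synthase gene, which was called in neither cell type and named after its values were seen. Lower were *CYSLTR1* (-0.70, edgeR adjusted p = 5.47e-07), *LTB4R* (-0.60, adjusted p = 8.82e-05) and *LTB4R2* (-0.46, adjusted p = 0.00931). The calls for *MGST3* and *PTGES2* were lost with DESeq2, with adjusted p of 0.0654 and 0.053, that for *MGST3* also with no expression filter (0.0812 in edgeR), and for *PTGES2* the value was 0.09 with an adjusted p of 0.386 in edgeR once the GC and length trends were removed. The call for *MGST3* was also lost without replicate 1 or 2 of promyelocytes with vehicle, replicate 1 of promyelocytes with TNF-α, replicate 2 of granulocytes with vehicle or replicate 3 of granulocytes with TNF-α (edgeR adjusted p up to 0.071). That for *PTGES2* was lost without replicate 1 of promyelocytes with TNF-α or replicate 2 of either granulocyte group (up to 0.0757). That for *TBXAS1* was lost with DESeq2 (0.0742), with its size factors in edgeR (0.0627) and with no expression filter (0.176), and held in 4 of 12 fits without single libraries: those without replicate 3 of either promyelocyte group or replicate 1 of either granulocyte group. With 24% of all genes called in this test, single differences are common.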

How the results depend on the processing

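The count of the 10 genes called with TNF-α was 4 or 5 in promyelocytes and 7 or 8 in granulocytes under every alternative run, and the vehicle levels gave 9 throughout. The count of genes whose response differed between cell types was 3 as reported, 6 with DESeq2's size factors (2 higher, 4 lower), 6 with no expression filter (2 higher, 4 lower) and 7 with DESeq2 (3 higher, 4 lower). With the GC and length trends removed *PTGS1* was called in this test as well. Fits that each left out a single library gave 4 to 5, 7, 3 to 4 and 9 genes. The granulocyte value of *ALOX5* crossed 0, at 0.00 with DESeq2's size factors and with DESeq2, 0.01 with all 12 libraries in 1 fit and -0.08 to 0.07 without single libraries. The difference for *LTC4S* was -0.07 with the GC and length trends removed and -0.03 to 0.73 without single libraries. The cause was not tested.

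Over all genes, 1438 in place of 2405 were called in promyelocytes at a threshold of 0.01 and 1598 without replicate 2 of the vehicle group, and 2843 in place of 4351 differed between the cell types at 0.01. With a replicate block the 10 genes gave 4, 7, 3 and 9 calls, and all genes 1833 in promyelocytes, 7721 in granulocytes and 3349 for the difference. It changed no call among the 10 genes, and *MGST3* (adjusted p = 0.0631 in edgeR) and *ABCC1* (0.053) in granulocytes and the differences for *PTGES2* (0.0514) and *TBXAS1* (0.0802) lost theirs. Samples with the same number did not deviate together (correlations of -0.179 to -0.00571), and whether they shared any handling cannot be told from these values. Depth limits *PTGS2*, *ALOX5*, *LTC4S* and the promyelocyte values of *PTGES*.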
